A study of Mus musculus with 4 samples.

Results

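The 9 genes described here are the adult globin genes Hba-a1, Hba-a2, Hbb-bs and Hbb-bt and the erythroid genes Klf1, Car1, Car2, Alas2 and Tfrc, read in RNA-Seq libraries of sorted HSCs. They were chosen by symbol, and each of the 9 had a row among the 19354 genes of the expression table. HSCs were sorted as LSK FLT3- CD48- CD150+ cells, and the lineage gate of the study's methods includes TER119, a surface marker of maturing red cells. The donors were Mx1-Cre Id2+/+ mice (14 animals) and Mx1-Cre Id2 fl/fl mice (15 animals) aged 8 to 16 weeks. All animals carried Mx1-Cre and all received pIpC, which starts an interferon response that turns the Cre recombinase on, so the controls had the same recombinase and the same injection. Mx1-Cre is active in blood cells and in other interferon-responsive cells, not in HSCs alone. Cells were pooled within a genotype 2 weeks after pIpC in 2 experiments. Each genotype gave 2 libraries, here replicates 1 and 2, and the labels do not tie a library to an experiment. The spread between 2 libraries of a genotype therefore measures the variation between these libraries, which may be technical in part. The p-values rest on that spread, and those of limma also on the spread of other genes of like level.

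Hemoglobin is made of alpha and beta chains, each carrying heme, and is made in bulk only in erythroid cells. Klf1 is the erythroid Krüppel-like factor, which binds CACCC elements and is best known for activating the adult beta-globin gene. Alas2 is the erythroid form of the first enzyme of heme synthesis, Tfrc is the transferrin receptor that brings iron into the cell, and Car1 and Car2 are cytosolic carbonic anhydrases, which interconvert carbon dioxide and bicarbonate. ID2 is a helix-loop-helix protein without a DNA-binding domain, which holds back E proteins. Since fewer erythroid cells and less RNA per cell cannot be told apart in bulk libraries, a level below is a level of the pool.

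The globin genes are pairs of near-identical neighbours, and this decides how far their rows can be separated. By GENCODE M21 on GRCm38, Hba-a1 lies on the plus strand at chr11:32283511-32284465 and Hba-a2 at chr11:32296489-32297298, with 12023 bases between them. Hbb-bt lies on the minus strand at chr7:103812524-103813996 and Hbb-bs at chr7:103826534-103828096, with 12537 bases between them. The coding sequences of Hba-a1 and Hba-a2 are 429 bases long and differ at 1 base, and those of Hbb-bs and Hbb-bt are 444 bases long and also differ at 1 base. The stretches around the differing base are shown because they are the coding sequence by which a read can be told to come from one copy rather than the other. The differing base is in capitals. All 4 stretches lie in exon 3, at chr11:32284313-32284373, chr11:32297130-32297190, chr7:103826665-103826722 and chr7:103812656-103812713 in the order printed, and each is written 5′ to 3′ along the transcript.
Hba-a1: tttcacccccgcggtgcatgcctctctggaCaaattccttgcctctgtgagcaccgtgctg
Hba-a2: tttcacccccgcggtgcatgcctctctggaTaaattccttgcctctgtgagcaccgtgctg
Hbb-bs: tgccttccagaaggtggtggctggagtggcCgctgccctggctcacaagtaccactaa
Hbb-bt: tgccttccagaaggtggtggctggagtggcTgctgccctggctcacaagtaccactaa

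Cutting each main transcript into windows of 50 bases showed how much of it is shared. Of the windows of Hba-a1 and Hba-a2, 67.5% and 86.9% were identical to the other alpha gene, and of those of Hbb-bs and Hbb-bt, 65.8% and 58.3% were identical to the other beta gene. Of the windows that were not shared, 49 in each alpha gene and 28 in each beta gene lay wholly in the coding sequence, and the rest reached into a UTR (162 and 17 for Hba-a1 and Hba-a2, 170 and 245 for Hbb-bs and Hbb-bt). How reads that match both copies were counted is not given in the sources used here. Values of a single globin row are therefore uncertain, and sums over a pair are given beside them.

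The regions before the RefSeq starts of these genes hold some of the elements for which globin promoters are known. The 250 bases before the start given by RefSeq (GRCm38.p6) were searched on both strands for CACCC, the Krüppel-like factor element, for AGATAA, the GATA element, for CCAAT and for TATAA in the 7 of 9 genes with an entry. Of 32851 promoters of the same length, 52.0% held CACCC, 9.99% held AGATAA, 33.8% held CCAAT and 22.8% held TATAA, so that only the GATA letters are uncommon. AGATAA was found in Hbb-bs and Alas2, at 1 match each. CACCC was found in each of the 7 genes, from 1 match in Hbb-bs and Klf1 to 3 in Hbb-bt, Alas2 and the second of the 2 starts listed for Tfrc. CCAAT and TATAA stood together in all 4 globin genes, with 3 and 2 matches in Hbb-bt and 1 of each in the other three. The stretches shown are the part of the alpha promoter that holds these elements, and the 30 bases in which the beta genes hold a Krüppel-like factor element and a CCAAT. Matches on either strand are in capitals, and in Hbb-bt a CCAAT of the strand opposite to the printed one (ATTGG) adjoins the printed CCAAT. A match is a run of letters, and binding was not measured here. Hba-a2 is read from chr11:32296389-32296488 on the plus strand, Hbb-bs from chr7:103827997-103828026 and Hbb-bt from chr7:103813991-103814020 on the minus strand. The RefSeq and GENCODE M21 starts differ, and the Hbb-bs stretch lies within the GENCODE span of that gene given above. The Hbb-bt stretch overlaps its GENCODE span in part.
Hba-a2: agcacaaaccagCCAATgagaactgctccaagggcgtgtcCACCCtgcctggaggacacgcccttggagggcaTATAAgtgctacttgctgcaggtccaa
Hbb-bs: tagagccaCACCCtggtaagggCCAATctg
Hbb-bt: cagggtaaCACCCtggcATTGGCCAATctg

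Values are log2 counts-per-million (CPM), quantile-normalized over the 4 libraries. Whole reads could be recovered for values under 32 CPM from their rank within a library, and depths estimated from them were 14200000 to 18800000 reads. The deletion was read first. Against 93 and 98 reads of Id2 in Id2+/+ there were 0 in both Id2Δ/Δ libraries, which is at least 39.0-fold lower when 0 is replaced by 3 reads per library. Id2Δ/Δ replicate 1 listed 606 genes at 0 reads against 170 to 326 in the other 3, and its correlation with Id2Δ/Δ replicate 2 over the genes tested was 0.942, against 0.972 between the Id2+/+ libraries. Of the 15895 genes tested, whose mean was 1 CPM or more, 0 (0%) reached an adjusted p under 0.05 by limma with Benjamini-Hochberg adjustment, and 742 (4.67%) had an unadjusted p under 0.05. Id2 itself, with a log2 difference of -7.31 ± 1.06 (SE), was not called, at an adjusted p of 0.910 by limma with Benjamini-Hochberg adjustment.

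Per kilobase of the longest transcript the 9 genes spanned more than 3 orders of magnitude, with Car2 far above the rest. Car2 stood at a mean of 1026 CPM per kilobase, 25th of the 15855 tested genes with a known length. Hbb-bt followed at 25.7, Tfrc at 9.52, Car1 at 4.60, Klf1 at 3.69, Hbb-bs at 3.68, Alas2 at 1.61, Hba-a1 at 1.56 and Hba-a2 at 0.784 CPM per kilobase. Each of the first 3 exceeded the next in every library, whereas from Car1 downwards every neighbour in this order overlapped the next over the 4 libraries. Hbb-bt stood above its sister genes, with 21.9% of the ranked genes above it, against 70.8% above Hbb-bs and 84.8% above Hba-a1. How reads shared by Hbb-bt and Hbb-bs were split is not known.

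**Figure D1:**
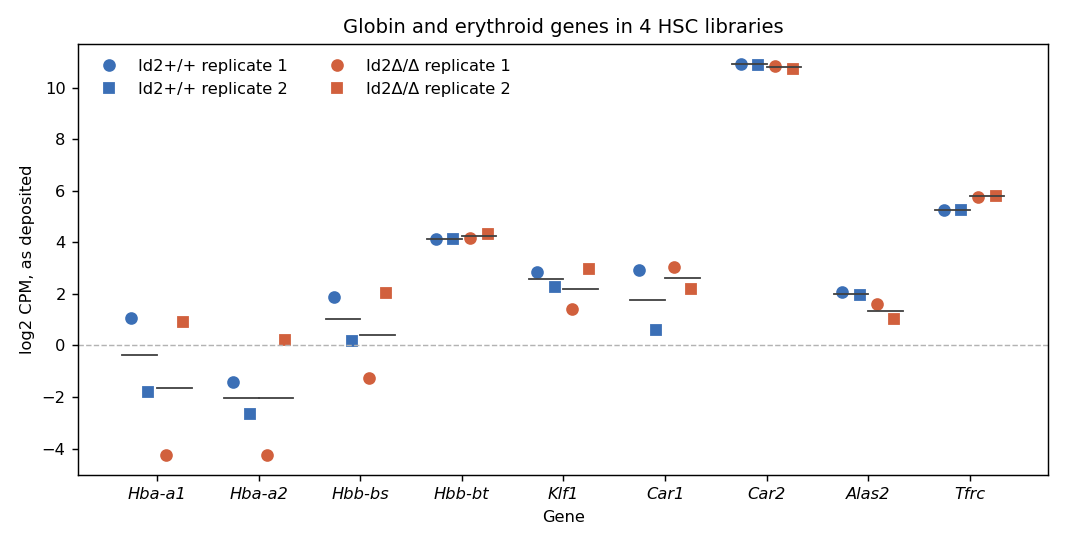
Levels of the 9 genes (horizontal axis) in log2 CPM as deposited (vertical axis), with blue points for Id2+/+ and orange points for Id2Δ/Δ, circles for replicate 1, squares for replicate 2 and bars for the genotype means. Hbb-bt, Car2 and Tfrc lie close together within a genotype, whereas Hba-a1, Hba-a2 and Hbb-bs spread widely, with Id2Δ/Δ replicate 1 lowest.

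The alpha-globin genes were near the limit of detection, and the genotypes overlapped. For Hba-a1, 31 and 5 reads were found in Id2+/+ replicates 1 and 2, and 0 and 32 reads in Id2Δ/Δ replicates 1 and 2. For Hba-a2 the Id2+/+ pair held 6 and 3 reads and the Id2Δ/Δ pair 0 and 19. Id2Δ/Δ replicate 1 was the lowest library for both genes. Id2Δ/Δ replicate 2 was the highest for Hba-a2, whereas for Hba-a1 the level was highest in Id2+/+ replicate 1, at 2.12 CPM against 1.90 CPM in Id2Δ/Δ replicate 2. A count of 0 in Id2Δ/Δ replicate 1 allows up to 3 reads, or 0.169 reads-per-million at the estimated depth. The 32 reads of Hba-a1 in Id2Δ/Δ replicate 2 have a 95% Poisson interval of 21.9 to 45.2, which covers counting error only. The log2 CPM of Hba-a1 averaged -0.37 ± 2.05 in Id2+/+ and -1.66 ± 3.66 in Id2Δ/Δ (SD, n = 2 each). The difference was -1.29 ± 1.87 (SE), with an adjusted p of 0.933 by limma with Benjamini-Hochberg adjustment. It took the opposite sign, 1.30, without Id2Δ/Δ replicate 1, and 0.16 without Id2+/+ replicate 1. Hba-a2, with a mean of 0.434 CPM, was under the filter and was not tested, so that 8 of the 9 genes were. Its log2 levels were -2.03 ± 0.89 in Id2+/+ and -2.03 ± 3.15 in Id2Δ/Δ (SD, n = 2 each). Hba-ps4, an alpha-globin pseudogene on chromosome 17, had 5, 3, 0 and 11 reads in the same order of libraries.

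The beta-globin genes behaved unlike each other. For Hbb-bs, 54 and 18 reads were found in Id2+/+ replicates 1 and 2, and 6 and 70 reads in Id2Δ/Δ replicates 1 and 2, with Id2Δ/Δ replicate 1 the lowest, as for Hba-a1 and Hba-a2. For Hbb-bt the Id2+/+ pair held 244 and 270 reads and the Id2Δ/Δ pair 316 and 373. As reads-per-million (the read count over the estimated depth), Hbb-bt lay between 17.2 and 19.8, a range narrower than the counting interval of any of its 4 values, whereas Hbb-bs went from 0.338 to 3.80. On the log2 scale Hbb-bs was 1.02 ± 1.19 in Id2+/+ and 0.39 ± 2.31 in Id2Δ/Δ (SD, n = 2 each), a difference of -0.63 ± 1.12 (SE) with an adjusted p of 0.942 by limma with Benjamini-Hochberg adjustment. This difference also turned, to 1.00, without Id2Δ/Δ replicate 1, and to 0.21 without Id2+/+ replicate 1. For Hbb-bt the levels were 4.11 ± 0.003 and 4.23 ± 0.105 (SD, n = 2 each). The groups of Hbb-bt did not overlap, but the difference of 0.12 ± 0.21 (SE) was far from the threshold, with an adjusted p of 0.942 by limma with Benjamini-Hochberg adjustment.

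Hbb-bt made up most of the globin signal, and its share changed between libraries because the other 3 genes did. Of all reads on the 4 adult globin genes, Hbb-bt held 72.8% in Id2+/+ replicate 1 (244 of 335, 95% Wilson interval 67.8 to 77.3%) and 91.2% in Id2+/+ replicate 2 (270 of 296, 87.4 to 93.9%). In the Id2Δ/Δ libraries it held 98.1% in replicate 1 (316 of 322, 96.0 to 99.1%) and 75.5% in replicate 2 (373 of 494, 71.5 to 79.1%). The shares thus differed within each genotype beyond the counting intervals, and the range of each genotype overlapped the other. In Id2Δ/Δ replicate 1 the 316 reads of Hbb-bt stood beside 6 reads of Hbb-bs and 0 reads of either alpha gene.

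The summed adult globins came to 23.4 and 18.9 CPM in Id2+/+ and to 18.3 and 26.9 CPM in Id2Δ/Δ. Both Id2+/+ sums lay between the Id2Δ/Δ sums. The log2 difference was 0.08, with an exact two-sided permutation p of 1, where 0.333 is the smallest value that 2 against 2 libraries allow. The beta sum, at 20.9, 18.4, 18.2 and 23.8 CPM, differed by 0.09 (exact permutation p of 1). The alpha sum, at 2.49, 0.441, 0.105 and 3.05 CPM, differed by -0.89 (exact permutation p of 1). The sum without Hbb-bt, chosen after seeing the data, was 6.13, 1.57, 0.528 and 7.11 CPM, a 13.5-fold range with a difference of -0.68 (exact permutation p of 1), so that leaving this row out turned the sign of the sum. In no case did a genotype stand apart.

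**Figure D2:**
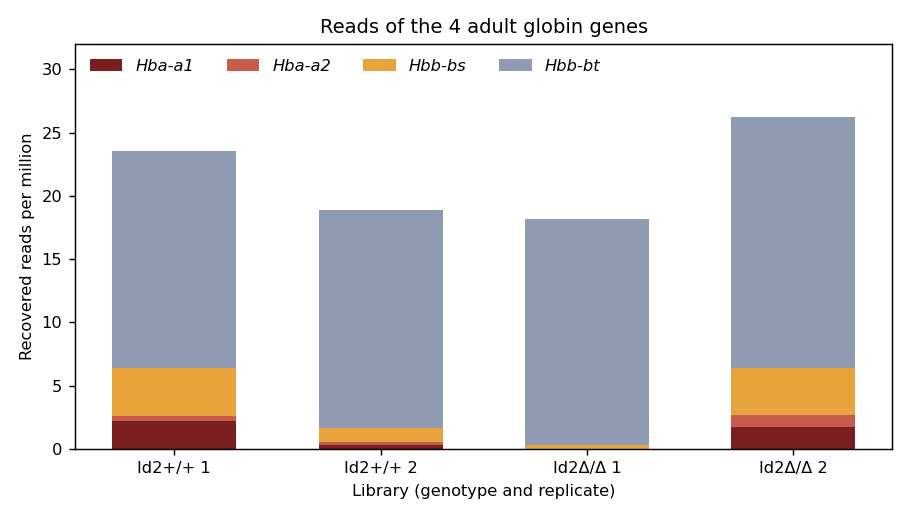
Reads of the 4 adult globin genes, in reads-per-million (vertical axis, from 0), recovered from the ranks of the values, stacked by gene in each library (horizontal axis). The Hbb-bt part is of like height in all 4 libraries, between 17.2 and 19.8, and the other 3 genes are largest in Id2+/+ replicate 1 and Id2Δ/Δ replicate 2.

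Klf1, the erythroid factor (chr8:84901928-84905291, plus strand), followed the low globin rows in its lowest library but not in the size of the change. Its reads numbered 105 and 78 in Id2+/+ and 47 and 140 in Id2Δ/Δ, or 7.24, 4.88, 2.64 and 7.84 CPM. The genotypes overlapped, and Id2Δ/Δ replicate 1 was again the lowest and Id2Δ/Δ replicate 2 the highest. Its log2 level was 2.57 ± 0.40 in Id2+/+ and 2.19 ± 1.11 in Id2Δ/Δ (SD, n = 2 each). The difference was -0.39 ± 0.55 (SE), with an adjusted p of 0.933 by limma with Benjamini-Hochberg adjustment, and it was 0.40 without Id2Δ/Δ replicate 1.

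The carbonic anhydrases Car1 and Car2 lie on chromosome 3 (chr3:14766216-14808368, minus strand, and chr3:14886273-14900770, plus strand), with 77904 bases between them. Their levels were unlike. Car2 stood at 1948 and 1855 CPM in Id2+/+ and at 1834 and 1701 CPM in Id2Δ/Δ, which is lower in both Id2Δ/Δ libraries by a small amount. Its log2 difference was -0.11 ± 0.09 (SE), from 10.89 ± 0.05 to 10.79 ± 0.08 (SD, n = 2 each), with an adjusted p of 0.910 by limma with Benjamini-Hochberg adjustment. Car1, a marker of erythroid progenitors, held 112 and 24 reads in Id2+/+ and 143 and 80 reads in Id2Δ/Δ. Id2+/+ replicate 2 was the low library here, not Id2Δ/Δ replicate 1, which held the most Car1 reads of all. The log2 difference of Car1 was 0.85 ± 0.75 (SE), from 1.76 ± 1.67 to 2.61 ± 0.59 (SD, n = 2 each), with an adjusted p of 0.910 by limma with Benjamini-Hochberg adjustment, and it was -0.33 without Id2+/+ replicate 2. Car1 was higher in replicate 1 than in replicate 2 of each genotype, and so was the summed neutrophil list, whose part in this was not tested. The summed neutrophil list, 14 of 15 genes with a row (Ly6g without), stood at 288 and 173 CPM in Id2+/+ and at 265 and 144 CPM in Id2Δ/Δ. Its most abundant gene, Prtn3, was at 7.08, 6.88, 7.23 and 6.84 log2 CPM. Of its 10 genes tested, 4 had a positive and 6 a negative difference. Retnlg was at 0 reads in both Id2Δ/Δ libraries and Mmp9 at 0 reads in Id2Δ/Δ replicate 1. Ctsg went the other way, with 1 and 4 reads in Id2+/+ and 23 and 26 in Id2Δ/Δ. Retnlg, Mmp9 and Ctsg were under the filter and were not tested.

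Alas2 (chrX:150547375-150570638, plus strand) was lower in both Id2Δ/Δ libraries. There were 61 and 62 reads in Id2+/+ and 54 and 35 reads in Id2Δ/Δ, or 4.15, 3.88, 3.04 and 2.06 CPM. The groups did not overlap, although the Poisson interval of the 54 reads (in reads-per-million, 2.28 to 3.97) reached over that of Id2+/+ replicate 2 (3.03 to 5.07). The log2 difference was -0.68 ± 0.45 (SE), from 2.01 ± 0.07 to 1.32 ± 0.40 (SD, n = 2 each), with an adjusted p of 0.910 by limma with Benjamini-Hochberg adjustment. It stayed negative without any of the 4 libraries in turn, between -0.97 and -0.40. Alas1, the form of the enzyme found in all cells, was at 5.55, 5.25, 5.19 and 5.22 log2 CPM, a difference of -0.20 ± 0.18 (SE) with an adjusted p of 0.910 by limma with Benjamini-Hochberg adjustment.

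Tfrc (chr16:32608920-32632794, plus strand) was the gene with the closest replicates and the clearest separation. Its level was 38.5 and 37.9 CPM in Id2+/+ against 54.6 and 55.3 CPM in Id2Δ/Δ, so that both Id2Δ/Δ libraries lay above both Id2+/+ libraries. The log2 level went from 5.25 ± 0.015 to 5.78 ± 0.012 (SD, n = 2 each), a difference of 0.53 ± 0.15 (SE, 95% interval 0.17 to 0.88), which is 1.44-fold. The unadjusted p of limma was 0.00965, 97th smallest of the 15895 genes, and the adjusted p was 0.910 with Benjamini-Hochberg adjustment, so that Tfrc did not pass the threshold. Leaving out any library kept the difference between 0.51 and 0.54. The SE of Tfrc is larger than its SDs alone would give, since limma also draws on the spread of other genes.

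**Figure D3:**
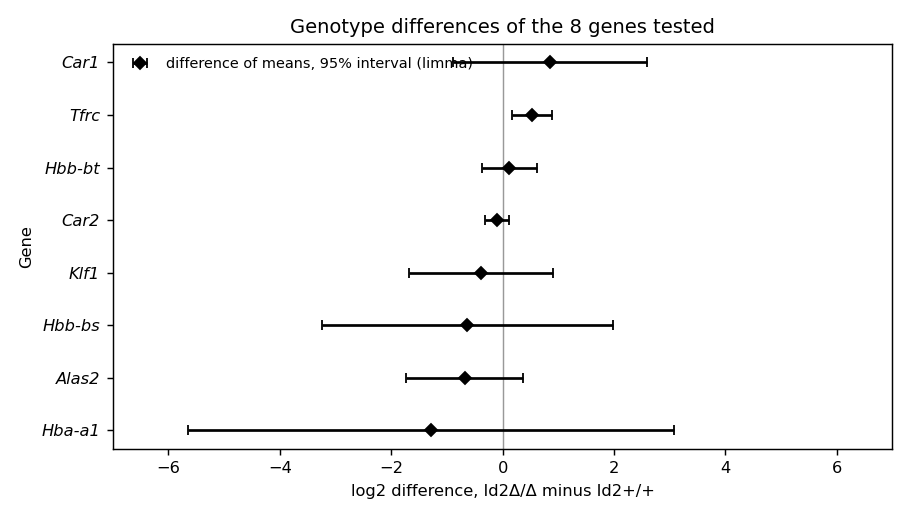
Log2 difference of Id2Δ/Δ from Id2+/+ (horizontal axis) for the 8 genes tested (vertical axis), with diamonds for the difference of means and bars for the 95% interval of the limma fit. Only the interval of Tfrc, 0.17 to 0.88, leaves out 0, and that of Hba-a1 runs from -5.66 to 3.07.

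Of the 8 members tested, 0 reached an adjusted p under 0.05 by limma with Benjamini-Hochberg adjustment, as for all genes (0%), and 1 had an unadjusted p under 0.05 (12.5%, beside 4.67% of all genes tested). The genotypes did not overlap with Id2Δ/Δ higher in 2 members (25.0%, Hbb-bt and Tfrc), beside 19.0% of all genes tested. They did not overlap with Id2Δ/Δ lower in 2 members (25.0%, Car2 and Alas2), beside 15.8% of all genes tested. With 8 genes, 1 gene more or less moves such a share by 12.5 percentage points. The median difference of the 8 was -0.25, and that of all genes tested was 0.01.

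The other genes of the pathways were read from lists. Over 8 lists of erythroid function and the 9 members, 93 genes were tested, of which 48 had a positive and 45 a negative difference, with a median of 0.00. None passed the threshold by limma, 4 of the 93 had an unadjusted p under 0.05 (4.30%, beside 4.67% of all genes), 20 did not overlap with Id2Δ/Δ higher (21.5%, beside 19.0%) and 14 with Id2Δ/Δ lower (15.1%, beside 15.8%). The 4 were Tfrc, E2f2, Bcl11a and Stat5b. The counts without overlap given below for each list stand beside the same shares of all genes tested, 19.0% higher and 15.8% lower. No test was run on a list.

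Heme synthesis had all 9 enzymes tested, of which 2 did not overlap upwards and 3 downwards (Alas1, Alas2 and Cpox), with a median of -0.05. Ppox, the most abundant, was at 7.16, 7.11, 6.79 and 7.38 log2 CPM, with a difference of -0.05 ± 0.19 (SE). Alas2 had the most negative difference of the pathway, and Cpox, coproporphyrinogen oxidase, followed at -0.37 ± 0.17 (SE). The enzymes of heme synthesis thus lay on either side of 0, and none passed the threshold by limma.

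Iron uptake, storage and heme transport had 17 of 18 genes tested, with a median of 0.03. In 6 of them the groups did not overlap upwards (Glrx5, Tfrc, Fth1, Steap3, Slc25a37 and Slc25a28) and in 1 downwards (Hmox1, heme oxygenase). Of all genes tested, 19.0% did not overlap upwards and 15.8% downwards, and the split in this list was not tested. The largest of the 6 upward differences was that of Tfrc. Fth1, the ferritin heavy chain and the most abundant gene of the list, differed by 0.03 ± 0.09 (SE), and Hmox1 by -0.63 ± 0.38 (SE). None of the 17 passed the threshold by limma.

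The erythroid transcription factors had all 18 genes tested, with a median of 0.04. Gata1, the master factor of the erythroid and megakaryocytic lineages, was at 4.85 and 4.81 log2 CPM in Id2+/+ and at 5.37 and 5.09 in Id2Δ/Δ, a difference of 0.41 ± 0.18 (SE) without overlap. Gata1 was highest in Id2Δ/Δ replicate 1, the library in which Klf1, Hba-a1, Hba-a2 and Hbb-bs were lowest. Hbb-bt was lowest in Id2+/+ replicate 1 and Alas2 in Id2Δ/Δ replicate 2. A link between these levels was not tested. E2f2, a cell-cycle factor used in erythroid maturation, had the largest positive difference at 0.81 ± 0.30 (SE). Bcl11a, the repressor of embryonic and fetal globin genes, had the most negative one without overlap at -0.31 ± 0.13 (SE), and Lmo2, the most abundant, differed by -0.15 ± 0.09 (SE). Gata1, E2f2, Bcl11a and Lmo2 each had an adjusted p of 0.910 by limma with Benjamini-Hochberg adjustment. Of 13 symbols of other globins and of the globin chaperone, 1 had a row, the neuroglobin gene Ngb, at 6, 2, 9 and 6 reads. The embryonic globins Hba-x, Hbb-y and Hbb-bh1 and the alpha-globin chaperone Ahsp had no row among the values used.

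Erythropoietin receptor signalling had 9 genes tested, with a median of 0.10, 1 gene without overlap upwards and 1 downwards. Epor, the receptor, was at 4.50, 4.22, 4.39 and 4.93 log2 CPM with overlapping groups. Stat5b, a transcription factor downstream of it, was at 7.74, 7.66, 7.08 and 7.53 log2 CPM, a difference of -0.39 ± 0.16 (SE). Bcl2l1, which encodes the survival protein BCL-XL, differed by 0.20 ± 0.16 (SE). The receptor and its signalling genes thus did not move in a shared direction.

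The carbonic anhydrases had 11 of 16 genes tested, with a median of -0.11, 1 gene without overlap upwards (Car8, 0.98 ± 0.71 SE) and 2 downwards (Car2 and Car13, the latter at -0.12 ± 0.32 SE). Of the late erythroid and red cell enzyme genes, 13 of 15 were tested, with a median of -0.05, 2 upwards without overlap and 3 downwards. Prdx2, the red cell peroxiredoxin, differed by 0.11 ± 0.12 (SE). Trim58, a ubiquitin ligase of late erythroblasts, was at 3.50 and 3.05 log2 CPM in Id2+/+ and at 0.76 and 2.82 in Id2Δ/Δ, a difference of -1.49 ± 0.64 (SE) with an adjusted p of 0.910 by limma with Benjamini-Hochberg adjustment. Id2Δ/Δ replicate 1 was the low library once more. The erythroid progenitor markers, which share 4 genes with the members, had 13 of 15 genes tested and a median of 0.20, with 2 upwards without overlap (Tfrc and Gata1) and 2 downwards (Car2 and Cpox).

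The red cell membrane and surface genes had 11 of 18 genes tested, with a median of -0.10, 2 upwards without overlap (Gypc and Icam4) and 0 downwards. Epb41, the most abundant, differed by -0.10 ± 0.14 (SE), and Icam4, the Landsteiner-Wiener blood group glycoprotein, by 0.49 ± 0.28 (SE). Slc4a1, the band 3 anion exchanger of maturing red cells, had no row among the values used. Sptb, beta spectrin, had 17 and 20 reads in Id2+/+ and 3 and 1 reads in Id2Δ/Δ, so that both Id2Δ/Δ libraries lay below both Id2+/+ libraries. It was under the filter and was not tested.

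**Figure D4:**
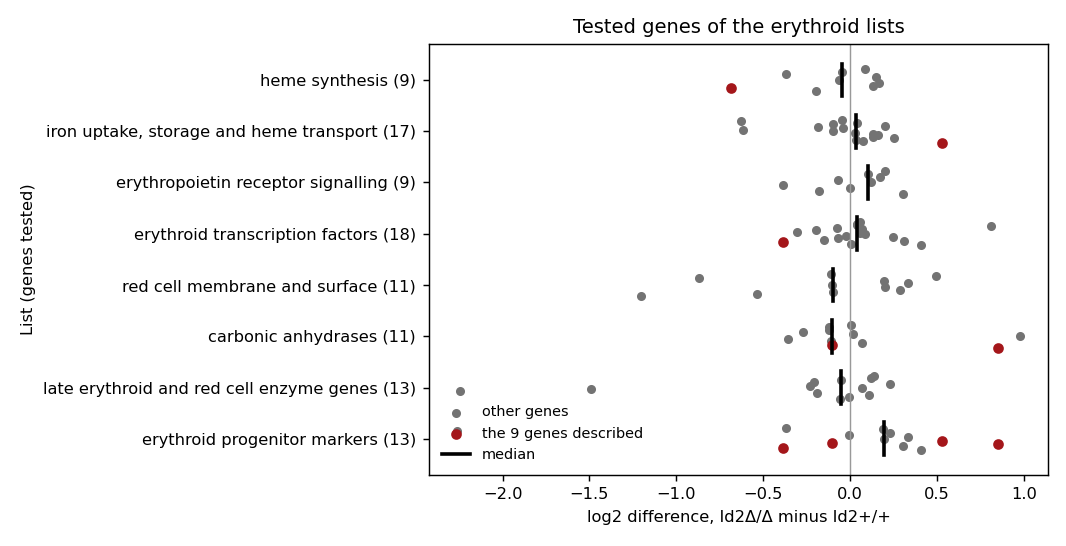
Log2 difference of Id2Δ/Δ from Id2+/+ (horizontal axis) of every gene tested in 8 erythroid lists (vertical axis, with the number of genes tested), with red points for members, grey points for other genes and black bars for medians. The medians lie between -0.11 and 0.20, and single genes on either side reach further, Trim58 among them at -1.49.

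The library that was lowest for the alpha globins, Hbb-bs and Klf1 was also the lowest for some, but not all, other erythroid genes of low level. Of the members, membrane genes, late erythroid genes and progenitor markers, 24 stayed under 32 CPM in every library, so that their reads could be recovered. Id2Δ/Δ replicate 1 was the lowest of the 4 libraries, in reads-per-million, in 14 of the 24 (58.3%), which were 4 of 7 members and 10 of 17 other genes, with Add2, at 0 reads in this library and in Id2+/+ replicate 1, not counted. Among the 17 such genes of the remaining erythroid lists it was the lowest in 5 (29.4%) and the highest in 6. Over all 11354 genes under 32 CPM in every library it was the lowest in 30.1%, and the other 3 libraries in 20.3 to 27.8%. These genes were not matched in level to the 24. Id2Δ/Δ replicate 1 also listed more genes at 0 reads, 606 against 170 to 326 in the other 3 libraries. The part of level in the share of 58.3% was not tested. Outside the members, 5 genes were at 0 reads in this library (Alox15, Dmtn, Ermap, Sphk1 and Add2), against 1 in Id2+/+ replicate 1 (Add2) and 0 in the other libraries. Alox15, the reticulocyte lipoxygenase, had 15, 28, 0 and 26 reads. Dmtn, the membrane skeleton protein dematin, had 9, 20, 0 and 26 reads. Ermap, an erythroid membrane protein, had 14, 20, 0 and 15 reads. These genes and Sptb were picked out after their values were seen. In the same library Icam4, Epb42, Car1 and Isg20 were the highest of the 4, with 307, 105, 143 and 548 reads, so the low counts did not extend to every erythroid gene.

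**Figure D5:**
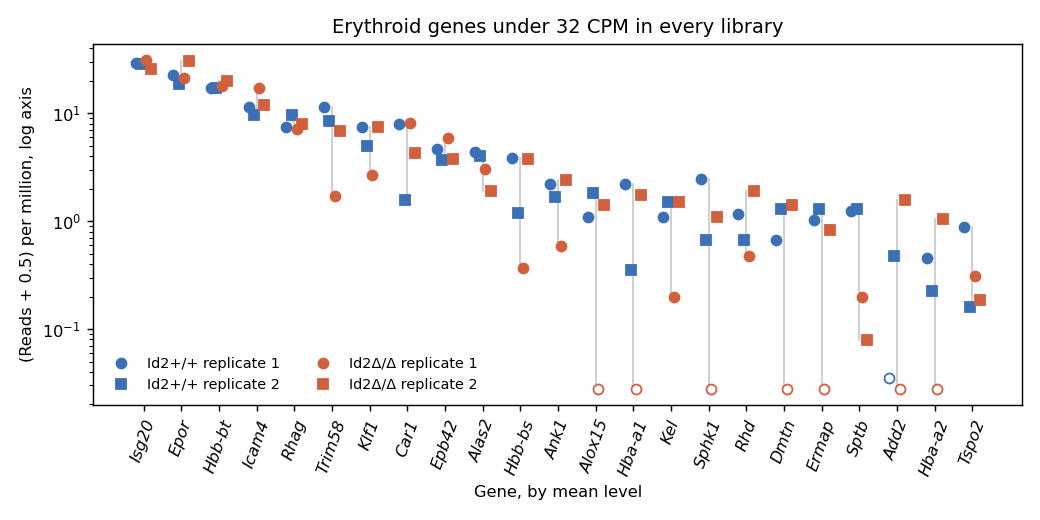
Reads plus 0.5, as reads-per-million, on a log axis (vertical) for 23 of the 24 erythroid genes under 32 CPM in every library (horizontal, by mean level), in blue for Id2+/+ and orange for Id2Δ/Δ, with circles for replicate 1, squares for replicate 2 and open symbols for 0 reads. Id2Δ/Δ replicate 1, the orange circle, is lowest in 13 of the 23 genes plotted (Add2, at 0 reads in 2 libraries, left aside), and 7 of its values are at 0 reads.

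Markers of other blood cells were read beside these genes. The macrophage and monocyte list, 9 of 10 genes with a row, summed to 54.5 and 47.5 CPM in Id2+/+ and to 49.2 and 49.8 CPM in Id2Δ/Δ. The megakaryocyte list, 11 of 12 genes with a row, summed to 1623 and 1760 CPM in Id2+/+ and to 1414 and 1706 CPM in Id2Δ/Δ, with Tubb1 at 0 reads in Id2Δ/Δ replicate 1. The HSC list, with 12 of 12 genes, summed to 4882 and 4721 CPM in Id2+/+ and to 3566 and 3982 CPM in Id2Δ/Δ. This sum weighs its most abundant gene, Kit, the most, at 11.08 and 10.93 log2 CPM in Id2+/+ and 10.19 and 10.55 in Id2Δ/Δ. Kit differed by -0.63 ± 0.13 (SE) without passing the threshold (adjusted p of 0.910 by limma with Benjamini-Hochberg adjustment). Differences were positive in 4 and negative in 8 of the 12 genes, with a median of -0.13. The mast cell and basophil list, 4 of 7 genes with a row, summed to 4.15 to 6.75 CPM in Id2+/+ and to 4.85 to 12.3 CPM in Id2Δ/Δ. The B-cell list, 3 of 8, summed to 36.8 to 40.8 and 37.7 to 54.0 CPM, and the T-cell list, 2 of 8, to 22.7 to 26.2 and 23.5 to 26.1 CPM. Flt3, Cd48 and Cd34 summed to 371 to 429 CPM in Id2+/+ and to 367 to 406 CPM in Id2Δ/Δ. The sort gated out FLT3 and CD48 at the surface, whereas CD34 was not part of the gate given above. Cd34 held most of the sum, at a mean of 341 CPM over the 4 libraries, against 48.2 for Flt3 and 4.62 for Cd48. The defining B-cell markers Cd79a, Ebf1 and Pax5 and the T-cell markers Cd3d, Cd3e and Cd3g had no row. In separate single-cell RNA-Seq of purified HSCs, the study reported a few contaminating neutrophils and red cells, which it removed by clustering. The part of any other cell type in the globin values was not tested.

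Nearness of pattern was measured as the Euclidean distance between log2 values centred on the gene mean over the 4 libraries, among 15892 genes. The 5 genes nearest to the summed adult globins were Dusp26, Gm15598, Lyrm9, Tmem147os and D130020L05Rik, at distances of 0.05 to 0.07. The sum spanned a 1.46-fold range over the 4 libraries, against 13.5-fold for the sum without Hbb-bt, and these 5 genes spanned a range like the former. For the sum without Hbb-bt, chosen after seeing the data, the nearest were Epb41l4a (distance 0.27), Vcam1 (0.73), Mmp15 (0.74), Exd1 (0.85) and Mgl2 (0.87). With 4 libraries such a ranking describes these libraries and no more.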

How the data were processed

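RNA-Seq of sorted HSCs, 2 libraries of each genotype, was analysed. The authors deposited log2 counts-per-million, 1 column per library. The unit was read from the values, which add to between 999980 and 999996 CPM per column once taken off the log2 scale. The sorted columns lie within 0.1 of each other at 88.4% of ranks, as quantile normalization by the authors would give. The submitters' processing notes name CASAVA 1.8.4, Trimmomatic 0.30, TopHat2 2.0.8, RSEM and STAR and the build mm9 (NCBIM37), with no role. Which aligner made this table, the counting of shared reads, strand use and the gene filter are not given in the sources used here. No listed gene had fewer than 4 reads in its second-highest library. Overlapping and antisense genes are uncertain.

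Identifiers matched GENCODE M21 for 99.7% of genes, and 82.0% carried the same version (8 of 9 members). Coordinates and lengths are those of GENCODE M21 on GRCm38, promoters those of RefSeq on GRCm38.p6, and the coordinates of the authors' build were not used. Amino acid sequences were not used here.

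Reads were recovered as the rank of each distinct value below 32 CPM (62.1% of values), a step checked on simulated counts. Read intervals and the limit of 3 reads for a count of 0 cover counting error only. The 15895 genes averaging 1 CPM or more entered limma 3.58.1 (R 4.3.3), fitted by lmFit on genotype alone with eBayes moderation along an intensity trend. Tests were two-sided, with Benjamini-Hochberg adjustment over all genes tested and a threshold of 0.05. Differences are Id2Δ/Δ minus Id2+/+ on the log2 scale, and low values are distorted by the normalization, since 1 read is listed at -4.25 in the Id2+/+ libraries and at -2.36 in Id2Δ/Δ replicate 1. Sums were compared with an exact two-sided permutation test. No count model was run.

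Named genes were the 9 members, Id2, 8 fixed erythroid genes, the most abundant gene of each list and its largest difference in either direction without overlap, and the 5 genes of nearest pattern. Genes with unadjusted p under 0.05 or 0 reads, and Ctsg, were named after their values were seen. Genes picked from the neutrophil, megakaryocyte, mast cell, B-cell and T-cell lists are given in full only where they touch a member. Some results of the lists are not reported here. The members and lists were chosen with earlier results of these data known. Alternatives varied the pseudocount, filter, scaling, trend, replicate number and libraries. Those on recovered reads and on the sum without Hbb-bt were chosen after seeing the data. Same-numbered libraries did not deviate together (r = 0.0592), so the numbers were not taken as pairs. Software was Python 3.11.15, numpy 2.4.6, pandas 2.3.3, scipy 1.17.1 and matplotlib 3.10.9.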

Additional observations from a re-analysis of the deposited data

How the results depend on the processing

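No difference of the 8 members tested passed an adjusted p of 0.05 under any of the alternatives run, the lowest adjusted p over them being 0.275 by limma with Benjamini-Hochberg adjustment. Over all genes limma called 0 under each alternative except the replicate block, a fit with the replicate number as a term, which called 1 gene (C130089K02Rik, no member), and 742 genes had an unadjusted p under 0.05. The block changed no call of a member. With 2 libraries a genotype, leaving out 1 library moved most low members. The log2 difference ranged from -3.88 to 1.30 for Hba-a1, -2.22 to 2.24 for Hba-a2, -2.26 to 1.00 for Hbb-bs, 0.04 to 0.19 for Hbb-bt, -1.17 to 0.40 for Klf1, -0.33 to 2.03 for Car1, -0.16 to -0.05 for Car2, -0.97 to -0.40 for Alas2, 0.51 to 0.54 for Tfrc and -0.20 to 0.35 for the summed adult globins. The sign turned for Hba-a1 and Hbb-bs without Id2+/+ replicate 1 (0.16 and 0.21) and, with Klf1, without Id2Δ/Δ replicate 1 (1.30, 1.00 and 0.40), for Car1 without Id2+/+ replicate 2 (-0.33), and for the globin sum without Id2+/+ replicate 2 (-0.077), without Id2Δ/Δ replicate 2 (-0.20) and without the Hbb-bt row (-0.68). The difference of Hba-a2, 0.0087 and not tested, was -0.62 without Id2+/+ replicate 2, -2.22 without Id2Δ/Δ replicate 2, -0.0058 under median-ratio rescaling and -0.91 on recovered reads, where that of Hba-a1 was -2.001. The cause was not tested. List medians without 1 library ranged from -0.21 to 0.10 for heme synthesis, 0.023 to 0.10 for iron, -0.083 to 0.12 for transcription factors, -0.17 to 0.14 for membrane genes, -0.18 to 0.16 for erythropoietin receptor signalling, -0.18 to 0.16 for carbonic anhydrases, -0.072 to 0.067 for late erythroid genes and -0.065 to 0.37 for progenitor markers. At a mean of at least 10 CPM, which leaves fewer genes, the medians were 0.055 for iron and 0.20 for membrane genes. Members with few reads are limited by depth. At 0 reads a level of up to 0.169 reads-per-million cannot be told from absence in Id2Δ/Δ replicate 1.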
